A study of Mus musculus with 91 samples.

Results

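The 10 genes described here encode the receptors through which liver cells sense foreign chemicals, and the proteins these receptors work with. They are Nr1i3 and Nr1i2, the genes of mouse CAR and PXR, then Rxra, the 3 PPAR genes Ppara, Pparg and Ppard, the aryl hydrocarbon receptor gene Ahr with its partner Arnt, and Nfe2l2 and Keap1, which encode NRF2 and the protein that holds it. They were chosen by gene symbol among 18193 genes measured in mouse liver, and 23 probe sets of the arrays carried 1 of these symbols alone. Each gene is described by its brightest probe set on average, and its other probe sets are given where they bear on a result. The levels of all 10 genes were followed through all 19 groups of mice.

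CAR, PXR and the PPARs are nuclear receptors that bind DNA together with RXRα as a common partner. CAR and PXR switch on drug-metabolising enzymes and transporters, PPARα drives the burning of fatty acids in hepatocytes, PPARγ drives lipid storage and is most abundant in fat, and PPARδ is found in most tissues. AHR binds planar aromatic compounds and pairs with ARNT, while NRF2 switches on detoxifying genes once reactive compounds release it from KEAP1. These proteins are regulated largely by ligands, by movement into the nucleus and, for NRF2, by degradation, none of which is seen in RNA.

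Total RNA from the livers of 91 adult male mice on a C57BL/6J background was hybridised to Affymetrix mouse arrays, 1 array per mouse. Mice of the strain hCAR/hPXR, named for the human receptors CAR and PXR, were given CITCO (10 mg/kg) or carboxymethylcellulose (CMC), and all other mice were labelled C57BL. In C57BL mice, CITCO (10 mg/kg) had the CMC cohort Co4 as control, and phenobarbital (PB, 0.05% w/v in drinking water) for 28 or 56 days had water (H2O) at the same day. Cyproterone acetate (CPA, 160 mg/kg) and 1,4-dichlorobenzene (DCB, 600 mg/kg) shared 1 group of corn oil (CO) controls, so their results are not independent of each other. Piperonyl butoxide (PBO, 600 mg/kg) was set against the CMC cohort Co2, Wy-14643 (WY, 100 mg/kg) against Co1, pioglitazone (Pio, 100 mg/kg) against Co5 and methapyrilene (MePy, 1000 ppm in food) against Co3. CITCO and PBO were injected intraperitoneally and CPA, DCB, WY and Pio given by gavage. Treatment lasted 28 days unless stated, and groups held 5 mice, except PBO, Co1, Co3 and Co5 with 4. The sources used here do not say how the human receptors were introduced or which part of the mouse genes the probe sets of Nr1i3 and Nr1i2 read. Values are log2 units, so a difference of 1 is a doubling, each mean is followed by its SD and each difference by its standard error, and the number of arrays limits the precision. A gene was called when its adjusted p over all 18193 genes was below 0.05.

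The labels were checked against hepatocyte markers and the best known targets of the receptors. The mean of 9 hepatocyte markers stood between 13.39 and 14.04 in the CPA livers, between 13.49 and 13.98 in the DCB livers and between 13.92 and 14.07 in the CO livers. Cyp2b10, the classical CAR target, was higher by 5.26 ± 0.467 after CITCO in hCAR/hPXR mice (adjusted p 7.38e-14) and by 7.93 ± 0.467 after 28 days of PB (adjusted p 8.07e-24). Livers labelled Pio also had Cyp2b10 higher, by 6.06 ± 0.495 (adjusted p 1.17e-15), while none of 11 measured PPARγ targets was called there and their median difference was -0.22. Livers labelled MePy had 5 of these 11 targets higher, among them the lipid droplet gene Cidec at 2.55 ± 0.440 (adjusted p 0.000348). Livers labelled WY had 6 of the 11 higher and 1 lower, with a list mean of 7.49 to 9.12, against 6.47 to 6.82 in Co1, so higher PPARγ targets were not particular to MePy. The groups labelled Pio and MePy are therefore named throughout by their labels only. The 3 arrays that correlated least with the rest of their own group over all genes were CPA replicate 2 at 0.977, DCB replicate 1 at 0.984 and PBO replicate 2. Values with and without the array are given where a call changed without it, and for Nr1i2, Rxra and Ppara after CPA. Nothing but the labels says that the mice of a group were kept or handled separately, so p-values measure the spread between mice within groups. That spread was estimated for each gene over all 19 groups together, not from the compared groups alone. In bulk liver, fewer cells of a type and less RNA per cell cannot be told apart.

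Among the 10 comparisons of a treated group with its control, the 10 genes gave 100 differences, of which 4 were called. Ppara was lower after CPA and after DCB, Rxra was lower after DCB and Pparg was higher after DCB. The share of all genes called was 5.32% for CPA, of which 2.70% lower, and 3.83% for DCB, of which 1.67% were lower and 2.15% higher. None of the 10 genes was called in the other 8 comparisons, in which 0.0989% of all genes were called after CITCO in hCAR/hPXR mice, 0.00550% after CITCO in C57BL mice, 0.967% and 0.566% after 28 and 56 days of PB, 0.808% after PBO, 10.6% after WY, 0.0220% in livers labelled Pio and 0.181% in those labelled MePy. At an unadjusted p below 0.05 between 0 and 3 of the 10 genes passed in each of those 8, beside 874 to 4593 of all 18193 genes, the tool being limma throughout. After CPA 6 of the 10 genes and after DCB 3 passed it, beside 3231 and 2718 of all genes. Treated and control values did not overlap for 3 of the 10 genes after DCB and for 1 after CPA, PBO, WY, 56 days of PB and in livers labelled Pio, where 4.28%, 4.87%, 2.51%, 9.17%, 2.99% and 3.63% of all genes did not overlap. In the remaining 4 comparisons all 10 genes overlapped, beside 2.02% and 1.03% of all genes not overlapping after CITCO in hCAR/hPXR and C57BL mice, 3.85% after 28 days of PB and 2.58% in livers labelled MePy. Without the 3 arrays named above, Ppara after CPA and Pparg after DCB stayed called, Rxra and Ppara after DCB did not, and Pparg after PBO became called.

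**Figure D1:**
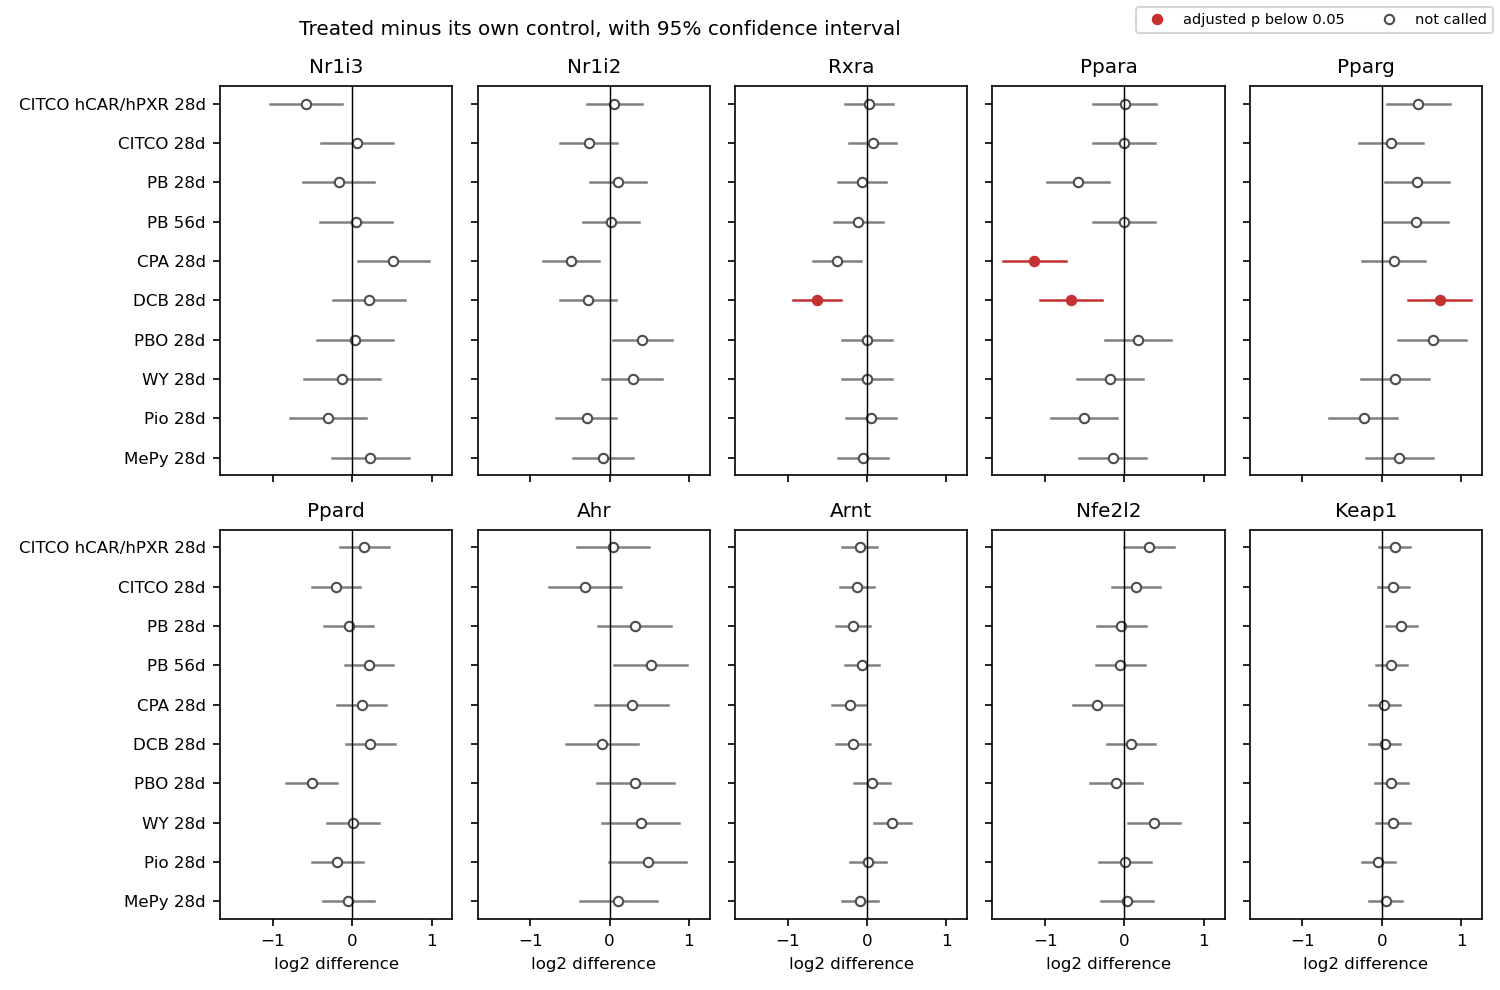
Difference in log2 value between each treated group and its own control (horizontal axis) for the 10 genes, with 95% confidence intervals, in 10 comparisons from top to bottom. Filled red points mark the 4 differences with an adjusted p below 0.05, namely Ppara after CPA at -1.14 and, after DCB, Rxra at -0.63, Ppara at -0.67 and Pparg at 0.73. CPA and DCB share the corn oil controls.

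The receptor genes Nr1i3 and Nr1i2 were first compared between the strains, since hCAR/hPXR mice are named for their human counterparts. Nr1i3 had values of 5.77, 5.25, 5.97, 6.22 and 6.08 in hCAR/hPXR controls, against 9.31, 9.70, 9.52, 9.33 and 8.78 in C57BL mice of Co4. The strains did not overlap, and the difference was -3.47 ± 0.227 (adjusted p 2.27e-21), which is 11.1-fold lower in hCAR/hPXR livers. Nr1i2 had values of 3.64, 3.73, 4.76, 3.73 and 4.26 in hCAR/hPXR controls, against 7.97, 7.66, 6.83, 7.88 and 7.20 in Co4, again without overlap. The difference was -3.48 ± 0.178 (adjusted p 8.71e-28), and its second probe set gave -3.10 ± 0.149. In hCAR/hPXR controls all values of both probe sets lay below the array medians of 5.18 to 5.36, and no detection calls were used, so the level there cannot be told from background and the size of the difference may be understated. Of all genes 0.126% were called between the strains, 0.0550% lower, and of the 10 genes these 2 were. Among all genes 1.07% did not overlap between these groups, and of the 10 genes again Nr1i3 and Nr1i2 did not. Both held against each of the other 4 CMC cohorts, where Nr1i3 differed by -3.61 to -3.15 and Nr1i2 by -3.61 to -3.24.

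The other 8 genes were not called between hCAR/hPXR and Co4, with differences from -0.15 for Arnt to 0.14 for Keap1. Against other cohorts some were. Ahr was higher in hCAR/hPXR controls than in Co5 by 1.05 ± 0.243 (adjusted p 0.00245), than in Co1 by 0.84 ± 0.243 (adjusted p 0.0104) and than in Co2 by 0.76 ± 0.230 (adjusted p 0.00776), but by 0.07 ± 0.230 than in Co4 and by 0.61 ± 0.243 than in Co3 (adjusted p 0.21). Rxra was higher than in Co2 by 0.93 ± 0.152 (adjusted p 7.89e-07) and than in Co1 by 0.64 ± 0.161 (adjusted p 0.00303). Arnt was higher than in Co1 by 0.41 ± 0.115 (adjusted p 0.00844) and than in Co2 by 0.35 ± 0.108 (adjusted p 0.00871), and Ppara higher than in Co2 by 0.69 ± 0.198 (adjusted p 0.00521), both opposite in sign to their differences from Co4, -0.15 and -0.10. Ppard was lower than in Co2 by -0.48 ± 0.155 (adjusted p 0.0148). The share of all genes called ran with the cohort, at 15% against Co1, 25.65% against Co2, 2.446% against Co3 and 5.733% against Co5. The cohorts also differed in the acute phase gene Lcn2. Its mean was 13.30 ± 0.889 in hCAR/hPXR controls and 12.96 ± 0.976 in Co4. It was 10.63 ± 0.7965 in Co2, 5.43 ± 0.667 in Co1, 6.45 ± 1.325 in Co3 and 6.78 ± 2.801 in Co5. The part of this in the differences above was not tested. Strain and cohort cannot be told apart, because the hCAR/hPXR controls are 1 group.

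Within the treatments Nr1i3, whose product, mouse CAR, is a receptor that PB acts through, was not called in any comparison. After CITCO Cyp2b10 was higher in hCAR/hPXR mice, by 5.26 ± 0.467, but was not called in C57BL mice, at 0.42 ± 0.467. The differences of Nr1i3 ran from -0.58 ± 0.227 after CITCO in hCAR/hPXR mice (adjusted p 0.487) to 0.52 ± 0.227 after CPA (adjusted p 0.191). In hCAR/hPXR livers given CITCO the 5 values were 5.27, 5.87, 5.07, 5.30 and 4.87, which overlap the strain's own controls. They stand near the array medians of 5.18 to 5.36, for a probe set of the mouse gene, and cannot be read as the level of human CAR. After 28 days of PB, the values were 9.19, 9.17, 9.13, 9.48 and 9.09, against 9.78, 9.34, 9.12, 9.29 and 9.36 with H2O. The groups overlapped, and the difference of -0.17 had a 95% confidence interval from -0.62 to 0.28. In the same livers 16 of 16 measured CAR targets were higher, with a median difference of 2.07 against 0.01 over all genes. Of all genes 0.967% were called there. This list, like the other gene lists used here, was chosen with earlier results of these data known, so such counts are descriptions. After 56 days of PB, 14 of the 16 targets were higher, and Nr1i3 differed by 0.05 with an interval from -0.40 to 0.50. One of the H2O controls at 56 days, replicate 5, had a Nr1i3 value of 10.75, while the other 4 lay between 8.64 and 9.45.

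Nr1i2 lay between 6.63 and 8.30 in all C57BL livers except CPA replicate 2, at 5.93, and was not called after any treatment. After CPA, which activates rodent PXR, its values were 7.24, 5.93, 6.81, 7.19 and 6.78, against 7.31, 7.31, 7.29, 7.21 and 7.25 in CO livers. The groups overlapped in a narrow range, and the difference of -0.49 ± 0.178 missed the threshold (adjusted p 0.096). Without CPA replicate 2, the lowest, it was -0.27 (adjusted p 0.534), while without replicate 1 or replicate 4 it was called, at -0.60 and -0.59 (adjusted p 0.0426 and 0.0485). The second probe set of Nr1i2 differed by -0.01 ± 0.149 after CPA. After DCB the first was 6.91, 7.09, 7.13, 6.78 and 7.11, all below the CO values, with a difference of -0.27 ± 0.178 (adjusted p 0.523). After PBO it was 8.08, 7.88, 7.61 and 8.30, against 7.35, 7.46, 7.67, 7.69 and 7.60 in Co2, a difference of 0.41 ± 0.188 (adjusted p 0.336). Of 10 measured PXR targets, 7 were higher after 28 days of PB, 4 after 56 days of PB, 3 after CPA, 3 after DCB and 4 after PBO, and after WY 3 were higher and 1 lower, without a called difference in Nr1i2.

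Rxra, the common partner, fell after DCB by the probe set used. Its values were 9.14, 10.27, 10.31, 10.12 and 10.30 in DCB livers, against 10.85, 10.72, 10.57, 10.70 and 10.45 in CO livers. All DCB values lay below all CO values, and replicate 1 lay far below its group. The difference was -0.63 ± 0.152 (adjusted p 0.00522), or 1.55-fold lower, and without DCB replicate 1 it was -0.41 (adjusted p 0.147). In that array the mean of 13 coregulator genes was 8.09, against 8.51 to 8.92 in the other DCB livers, and the mean of 9 hepatocyte markers was 13.49, against 13.62 to 13.98. Their part in the result was not tested. The other probe sets of Rxra did not follow, with differences of 0.06 ± 0.107 and -0.09 ± 0.129 after DCB and correlations of -0.04 and -0.13 with the first over the 91 arrays centred on their groups. Both were dimmer than the first, whose mean over all arrays was 10.53. The probe set with the correlation of -0.04 had a mean of 7.85. That with -0.13 had a mean of 3.91, below the array medians of 5.18 to 5.36, so it could hardly show a fall.

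After CPA Rxra had values of 10.40, 9.50, 10.62, 10.41 and 10.46, against the same CO values. Replicate 2 was the low one, and the difference of -0.38 ± 0.152 was not called (adjusted p 0.136). Without replicate 2 it was -0.19 (adjusted p 0.651). Rxra was not called in the other 8 comparisons, where its differences lay between -0.11 and 0.07. Its group means in C57BL mice ranged from 9.99 in PBO to 10.90 in CITCO livers. The PBO mean of 9.99 ± 0.346 stood beside 9.99 ± 0.316 in its own controls of Co2, so that it was low in the treated mice and in their control cohort alike.

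**Figure D2:**
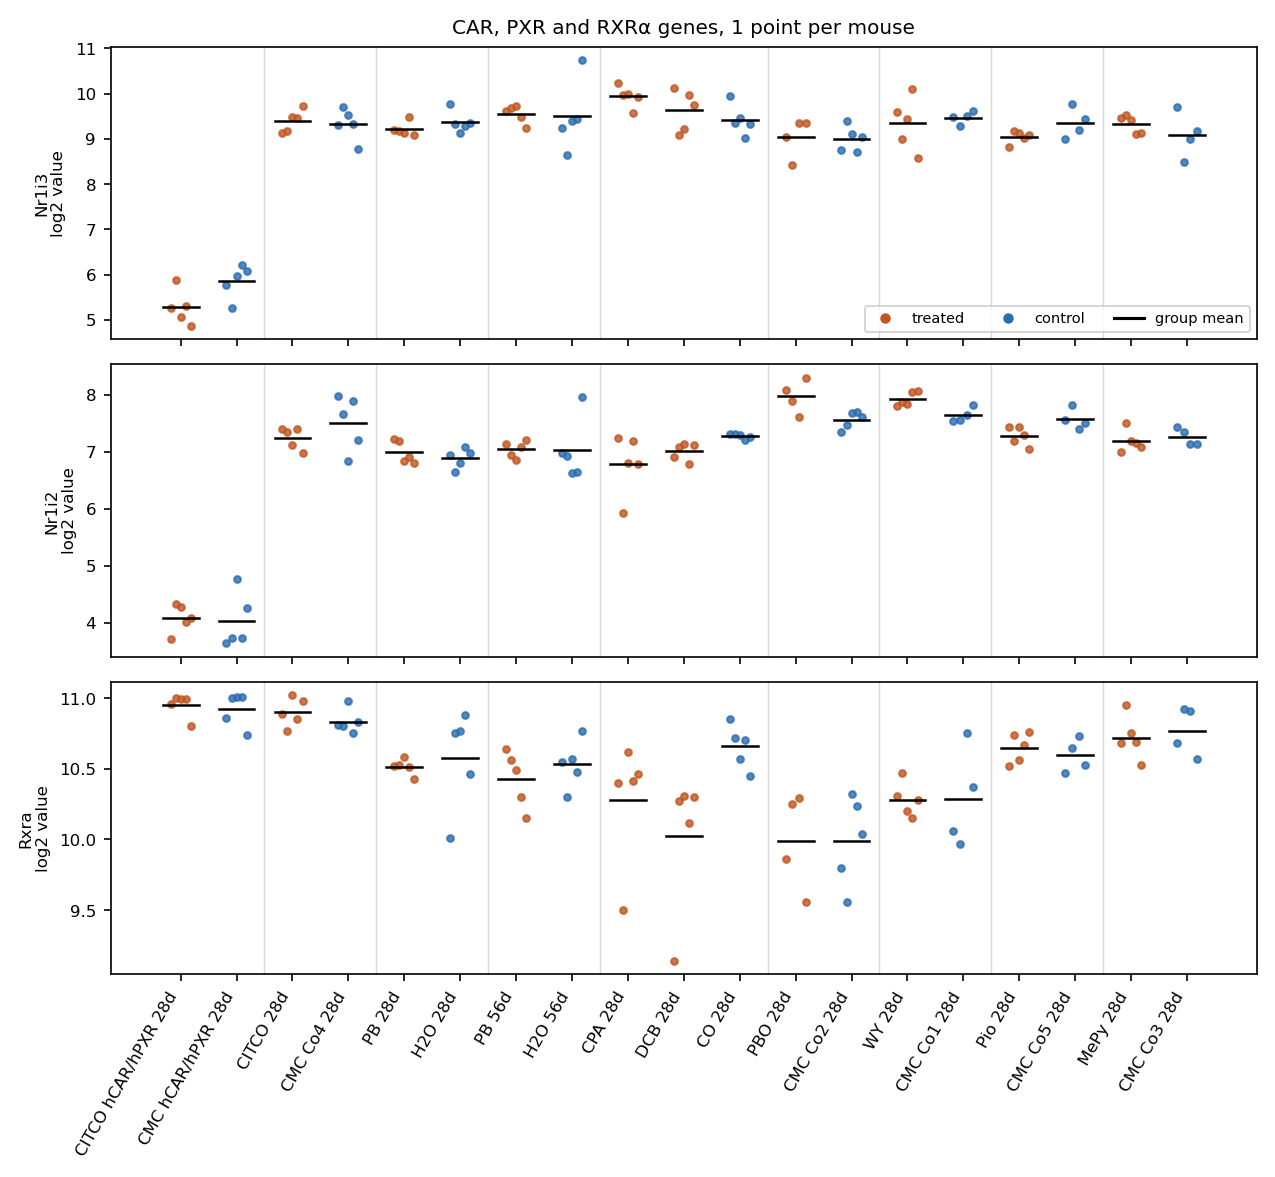
Log2 values of Nr1i3, Nr1i2 and Rxra in every mouse of the 19 groups, with each treated group (orange) left of its control (blue) and the group mean as a black line. In hCAR/hPXR livers Nr1i3 lies between 4.87 and 6.22 and Nr1i2 between 3.64 and 4.76, below all C57BL livers, and for Rxra the lowest values are DCB replicate 1 at 9.14 and CPA replicate 2 at 9.50.

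Ppara, the fatty acid sensor of hepatocytes, fell after CPA and gave the clearest treatment difference among the 10 genes. Its values were 9.88, 9.14, 10.59, 9.64 and 10.23 in CPA livers, against 11.34, 11.19, 11.03, 10.62 and 11.00 in CO livers. The highest CPA value lay just below the lowest CO value. The difference was -1.14 ± 0.198 (adjusted p 4.01e-05), or 2.20-fold lower, and among all genes 4.87% did not overlap between these groups. Ppara has 3 probe sets, and the others gave -0.96 ± 0.178 and -0.80 ± 0.162, both called when all probe sets were tested. Leaving out CPA replicate 2, the lowest, left -0.95 (adjusted p 0.00122), and in 10 fits without 1 mouse each the difference ran from -1.31 to -0.95 and was called in all.

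After DCB Ppara had values of 9.78, 10.20, 10.70, 10.47 and 10.66, against the same CO livers, with 2 DCB values above the lowest CO value. The difference was -0.67 ± 0.198 (adjusted p 0.0325), or 1.60-fold lower. It was called in 4 of 10 fits without 1 mouse, in which it ran from -0.78 to -0.53, and not with the 2 groups alone (adjusted p 0.0738). The other probe sets of Ppara were lower by -0.86 ± 0.178 (adjusted p 0.00103) and -0.68 ± 0.162 (adjusted p 0.00602). DCB replicate 1, the array with the low Rxra value, was also the lowest in Ppara, and without it the difference was -0.53 (adjusted p 0.233). Over 81 C57BL arrays centred on their groups, Ppara and Rxra correlated at 0.56, and over the 17 C57BL group means at 0.68, as a description only.

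**Figure D3:**
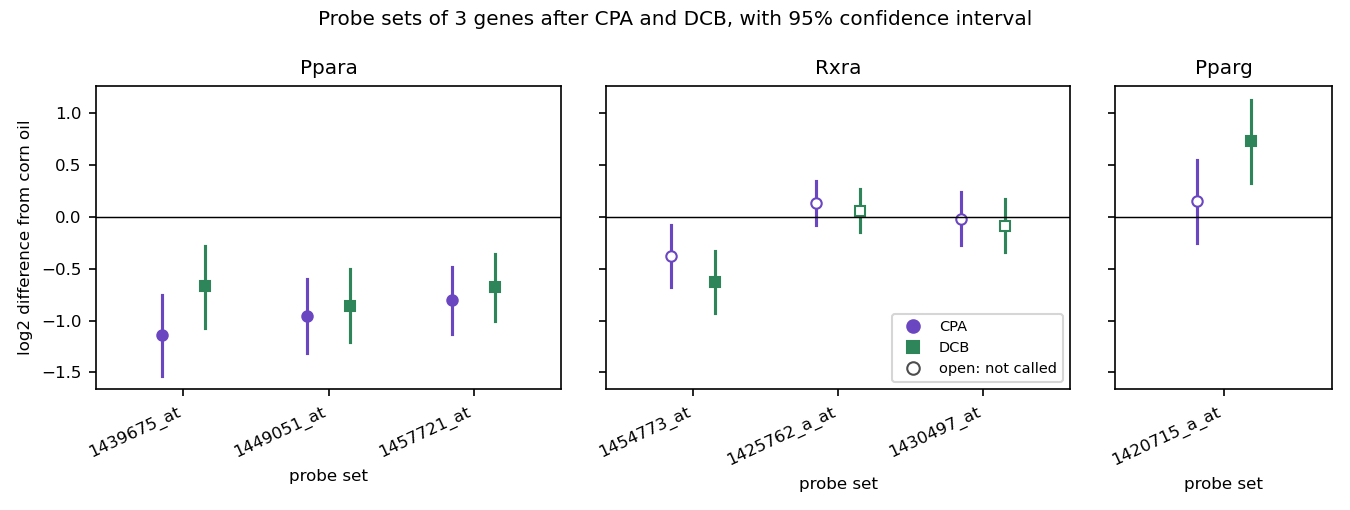
Difference in log2 value from corn oil controls (vertical axis) for each probe set of Ppara, Rxra and Pparg after CPA (circles) and DCB (squares), with 95% confidence intervals, where filled symbols were called when all probe sets were tested. The 3 probe sets of Ppara lie below 0 after both compounds, between -1.14 and -0.67, while for Rxra 1 of 3 probe sets is called, after DCB.

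In the same CPA livers 7 of 22 measured PPARα targets were lower and none higher. Cyp4a14, a fatty acid hydroxylase, differed by -3.20 ± 0.816 (adjusted p 0.00879), Cyp4a31 by -1.32 ± 0.338 (adjusted p 0.00913), and Cpt1a, which brings fatty acids into mitochondria, by -1.02 ± 0.146 (adjusted p 4.82e-07). Cyp4a14 had a lowest, median and highest value of 6.08, 8.01 and 12.05 in CPA livers, against 11.33, 11.57 and 12.70 in CO livers, so single CPA mice differed widely. After DCB, 2 targets were lower and 1 was higher, Cpt1a at -0.66 ± 0.146 and Creb3l3 at -0.34 ± 0.0823 beside the fatty acid transporter Cd36 at 1.42 ± 0.321. Of 13 coregulators, 4 were lower after CPA, among them Ppargc1b at -1.39 ± 0.299, and of 25 other nuclear receptors Rora and Hnf4a were lower, by -0.55 ± 0.157 and -0.47 ± 0.117. Hnf4a, a master regulator of hepatocytes, was also lower after DCB, by -0.54 ± 0.117 (adjusted p 0.00146). Members of the PPARα and PPARγ target lists overlap, Cd36 being in both.

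CPA and DCB livers also differed from CO livers in other genes. Of 16 clock genes and clock outputs 7 were lower and 2 higher after CPA, with Dbp, a transcription factor whose RNA cycles over the day, at 9.66 against 11.90 in CO livers, and Arntl, the gene of its activator BMAL1, at 7.33 against 5.99. The mean of the 16 genes lay between 7.14 and 7.60 in CPA livers and between 7.72 and 8.13 in CO livers. Of 22 acute phase genes 4 were higher after CPA, and their mean was 12.93 in CPA replicate 2 and 12.62 in replicate 5, against 10.74 to 10.92 in the other 3 CPA livers and 10.39 to 11.56 in CO livers. After DCB 1 of the 16 clock genes was higher and 1 lower, Clock at 0.60 ± 0.178 (adjusted p 0.0329) and Ciart at -1.07 ± 0.280 (adjusted p 0.0123). Dbp lay between 10.74 and 11.12 in DCB livers, against 11.61 to 12.17 in CO livers, and the mean of the 16 genes between 7.59 and 7.82, against 7.72 to 8.13. In CPA replicate 2 the coregulator mean was 7.73, against 8.57 to 8.70 in the other CPA livers. The sources used here do not give the hour at which livers were taken, and the part of these genes in the results for Ppara, Rxra and Pparg was not tested.

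Wy-14643 is a PPARα agonist, and 11 of 22 PPARα targets were higher in WY livers, with a median difference of 0.69 against -0.04 over all genes. Ppara itself had values of 11.18, 10.58, 11.04, 10.78 and 10.49 in WY livers, against 11.02, 10.65, 11.08 and 11.22 in Co1. The groups overlapped, with a difference of -0.18 ± 0.210 (adjusted p 0.632), while its second probe set was lower by -0.61 ± 0.189 (adjusted p 0.0272 over all probe sets). After 28 days of PB, Ppara was 10.57, 10.35, 10.80, 10.53 and 10.25, against 10.62, 11.05, 11.49, 11.45 and 10.83 with H2O, a difference of -0.59 ± 0.198 that was not called (adjusted p 0.181). After 56 days its mean was 10.81 ± 0.387, against 10.81 ± 0.303 with H2O. The interaction of PB with time, 0.59 ± 0.280, was not called (adjusted p 0.999), with a 95% interval from 0.03 to 1.14.

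Pparg rose after DCB. Its values were 8.03, 8.06, 8.22, 8.20 and 8.13 in DCB livers, against 7.78, 6.95, 7.30, 7.56 and 7.39 in CO livers. All DCB livers lay above all CO livers, and among all genes 4.28% did not overlap there. The difference was 0.73 ± 0.202 (adjusted p 0.02), or 1.66-fold, and Pparg has 1 probe set only. Without CO replicate 2, the lowest control, it was 0.62 (adjusted p 0.0971), and it was called in the other 9 fits without 1 mouse. Of 11 PPARγ targets 1, Cd36, was higher after DCB. The mean of 4 fat cell markers was 5.52 to 5.79 in DCB livers and 5.23 to 5.69 in CO livers, and its part in the result was not tested.

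Pparg was not called elsewhere. After PBO its values were 8.07, 7.23, 8.07 and 7.72, against 7.75, 6.61, 7.24, 6.64 and 7.44 in Co2, with a difference of 0.64 ± 0.214 (adjusted p 0.151). That difference was called without PBO replicate 2, at 0.82, or without Co2 replicate 1, at 0.79 (adjusted p 0.0488 in each). After 56 days of PB the values were 8.37, 8.45, 8.40, 8.37 and 8.35, the tightest group of this gene, and all lay above the H2O values of 8.27, 7.71, 7.93, 7.92 and 7.94. The difference of 0.43 ± 0.202 had an adjusted p of 0.683, and 2.99% of all genes did not overlap there. Pparg after 56 days of PB also stood apart from the next highest of the 19 groups, the DCB livers, without overlap. In the 2 groups where 5 or more PPARγ targets were higher, Pparg differed by 0.22 ± 0.214 in livers labelled MePy (adjusted p 0.907) and by 0.16 ± 0.214 after WY (adjusted p 0.675), and in those labelled Pio by -0.23 ± 0.214 (adjusted p 0.858).

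Ppard was measured at low values, between 4.37 and 6.08, and its probe sets did not follow each other within groups (correlation 0.00). After PBO it was 5.27, 5.22, 5.36 and 5.01, against 5.99, 6.08, 5.54, 5.64 and 5.40 in Co2, and all PBO livers lay below all controls. The difference of -0.51 ± 0.164 was not called (adjusted p 0.119), and 2.51% of all genes did not overlap in that comparison. Co2 had the highest mean of Ppard among the 8 C57BL control groups, 5.73, with Co5 next to it at 5.72, against 5.02 in H2O at 56 days.

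**Figure D4:**
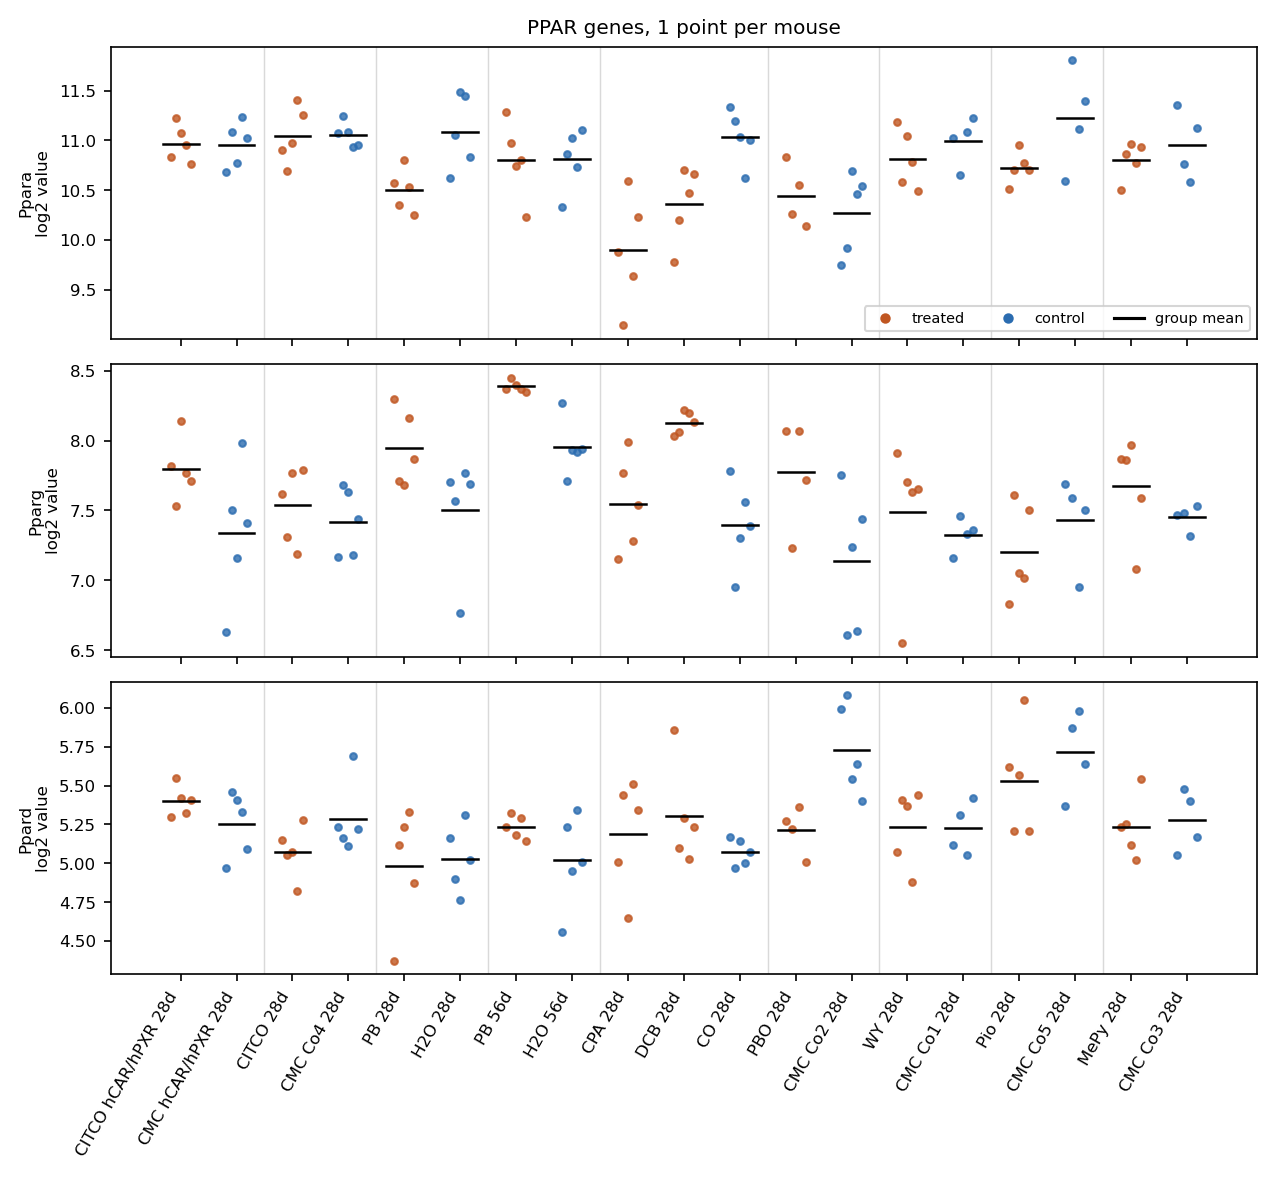
Log2 values of Ppara, Pparg and Ppard in every mouse of the 19 groups, with each treated group (orange) left of its control (blue) and the group mean as a black line. Ppara is lowest in CPA livers, with a mean of 9.90, and Pparg is highest after 56 days of PB, at 8.39, and in DCB livers, at 8.13. Ppard is highest in the control cohorts Co2, at 5.73, and Co5, at 5.72.

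The upstream sequences of the 3 genes with a called treatment difference are shown to set their promoters side by side, 250 bases before the annotated start, from RefSeq on build GRCm38.p6. Of the 10 genes 9 had such a sequence in the table used, in 12 promoters. Capitals mark matches, on either strand, to AGGTCA, the hexamer that nuclear receptors bind, the direct repeat of this hexamer spaced by 1 base, bound by PPAR with RXR, GCGTG, the core bound by AHR with ARNT, TGACNNNGC, the core bound by NRF2, and CACGTG, the E-box bound by clock proteins. The repeat contains the hexamer, and other letters can overlap.
Ppara, chr15:85735526-85735775, plus strand: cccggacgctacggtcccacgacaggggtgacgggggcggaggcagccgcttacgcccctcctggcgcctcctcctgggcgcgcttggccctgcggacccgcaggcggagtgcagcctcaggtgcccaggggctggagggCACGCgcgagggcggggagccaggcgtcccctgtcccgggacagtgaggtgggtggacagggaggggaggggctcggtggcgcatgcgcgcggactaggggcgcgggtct
Rxra, start 1, chr2:27676951-27677200, plus strand: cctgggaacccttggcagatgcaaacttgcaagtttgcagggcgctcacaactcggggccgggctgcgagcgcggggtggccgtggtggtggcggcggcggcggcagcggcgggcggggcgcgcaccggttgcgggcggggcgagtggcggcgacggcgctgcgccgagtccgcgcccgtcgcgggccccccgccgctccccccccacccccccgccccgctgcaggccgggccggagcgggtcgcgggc
Rxra, start 2, chr2:27709042-27709291, plus strand: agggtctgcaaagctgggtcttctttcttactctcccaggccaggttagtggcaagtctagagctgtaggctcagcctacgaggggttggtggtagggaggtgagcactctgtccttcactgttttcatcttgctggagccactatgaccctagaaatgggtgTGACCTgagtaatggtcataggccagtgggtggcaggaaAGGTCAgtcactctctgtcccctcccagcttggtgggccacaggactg
Pparg, start 1, chr6:115360894-115361143, plus strand: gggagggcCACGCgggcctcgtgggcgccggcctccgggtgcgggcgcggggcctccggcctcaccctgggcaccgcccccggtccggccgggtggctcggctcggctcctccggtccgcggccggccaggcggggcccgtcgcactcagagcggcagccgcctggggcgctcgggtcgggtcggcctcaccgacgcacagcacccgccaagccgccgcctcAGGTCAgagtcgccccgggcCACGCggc

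Shown are Ppara, both starts of Rxra and the first of 3 starts of Pparg. The stretch of Ppara held 1 match to GCGTG and none to AGGTCA, the first start of Rxra held no match, the second start of Rxra held 2 matches to AGGTCA, and the first start of Pparg held 1 to AGGTCA and 2 to GCGTG. Over all 32851 mouse promoters of this length, 14.0% held AGGTCA, 0.0335% the repeat, 28.2% GCGTG, 10.2% TGACNNNGC and 6.02% CACGTG. None of the 12 promoters held the repeat. The second start of Pparg held 1 AGGTCA and 1 TGACNNNGC and the third none. Among the other genes, Nr1i3 held 1 CACGTG, Ppard, Arnt and Keap1 1 GCGTG each, Arnt 2 TGACNNNGC, Nfe2l2 1 TGACNNNGC and Nr1i2 no match. A match is a match of letters and shows no binding, and start sites other than those listed in the table were not searched.

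Ahr had the widest spread of the 10 genes between control groups, narrowly ahead of Ppara at 0.96. Among the 8 C57BL control groups its mean ranged from 9.16 in Co5 to 10.15 in Co4, a spread of 0.99, and no treatment difference was called. The 5 Co4 values were 10.07, 9.47, 10.06, 11.50 and 9.64, and replicate 4 was the highest of all arrays. It raised the Co4 mean, so the first place of Ahr in spread rests on that mouse. The largest treatment difference was 0.52 ± 0.230 after 56 days of PB, where the values were 10.27, 10.51, 10.46, 10.48 and 10.28, against 9.58, 9.63, 9.82, 9.60 and 10.77 with H2O (adjusted p 0.648). The single high control was replicate 5, the mouse that was also high in Nr1i3 and Nr1i2. In livers labelled Pio the values were 9.53, 9.74, 9.74, 9.32 and 9.86, against 9.26, 9.03, 9.26 and 9.10 in Co5. All treated livers lay above all controls, in a comparison where 3.63% of all genes did not overlap, and the difference of 0.48 ± 0.243 was not called (adjusted p 0.66).

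Over 81 C57BL arrays centred on their groups, Ahr correlated with the acute phase gene Lcn2 at 0.43 and with its partner Arnt at 0.48, and the part of inflammation in the level of Ahr was not tested. The second probe set of Ahr did not follow the first (correlation -0.03), and was dimmer, with a mean of 5.96 over all arrays against 9.88. Of 8 measured AHR targets 2 were higher after DCB, 2 after PBO and 1 after PB at each time. Cyp1a2, an AHR target that is high in liver, was higher by 0.76 ± 0.183 after DCB (adjusted p 0.00523) and by 0.86 ± 0.194 after PBO (adjusted p 0.0098). It was also higher by 0.84 ± 0.183 and 0.93 ± 0.183 after 28 and 56 days of PB (adjusted p 0.00488 and 0.00125). After WY it was lower by -1.06 ± 0.194 (adjusted p 5.73e-05). The Ahr differences beside these were -0.10 ± 0.230 after DCB, 0.32 ± 0.243 after PBO and 0.39 ± 0.243 after WY. After 28 and 56 days of PB they were 0.32 ± 0.230 and 0.52 ± 0.230, and none of them was called. Where Cyp1a2 was higher, the CAR target Cyp2b10 was higher too, by 6.47 ± 0.467 after DCB and 2.70 ± 0.495 after PBO. After 28 and 56 days of PB it was higher by 7.93 ± 0.467 and 6.98 ± 0.467. Cyp2b10 was also higher after CPA, after CITCO in hCAR/hPXR mice and in livers labelled Pio, where Cyp1a2 was not called. Which receptor raised Cyp1a2 was not tested.

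Arnt came closest to a call after WY. Its values were 7.65, 7.81, 7.68, 7.79 and 7.89 in WY livers, against 7.29, 7.53, 7.51 and 7.46 in Co1, without overlap. The difference of 0.32 ± 0.115 had an adjusted p of 0.0589, in a comparison with 9.17% of all genes not overlapping. It was called when genes of low mean were left out (adjusted p 0.0399) or without WY replicate 1 (adjusted p 0.0464). Its other 4 probe sets differed by -0.17 to 0.12, none called. The brightest of these had a mean of 7.68 over all arrays and correlated with the first at 0.56 within groups. The rest had means of 4.09 to 4.76, below the array medians of 5.18 to 5.36. Co1 had the lowest mean of Arnt among the control groups, 7.45. Of 8 measured partners and chaperones of AHR, 1 was called in the 10 treatments, Arntl after CPA.

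Nfe2l2, the gene of NRF2, was not called in any comparison, also where its targets rose. After DCB 13 of 19 measured NRF2 targets were higher, with a median difference of 0.84 against 0.02 over all genes, among them Nqo1, a quinone reductase, at 2.00 ± 0.245 (adjusted p 3.24e-09). Nfe2l2 itself was 9.51, 10.11, 10.35, 9.53 and 10.32 in DCB livers, against 9.96, 9.94, 10.11, 9.26 and 10.13 in CO livers. The groups overlapped widely, and the difference of 0.08 ± 0.155 had a 95% interval from -0.22 to 0.39. After 28 and 56 days of PB 7 and 6 of the 19 targets were higher, and Nfe2l2 differed by -0.04 ± 0.155 and -0.05 ± 0.155. The target lists of NRF2 and CAR share genes such as Gstm3. The largest differences of Nfe2l2 were 0.37 ± 0.164 after WY (adjusted p 0.138) and -0.34 ± 0.155 after CPA (adjusted p 0.217).

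Keap1 was the steadiest of the 10 genes between control groups. Its control means ran from 8.74 in CO to 8.99 in Co2, a spread of 0.25, against 0.50 to 0.99 for the other 9 genes. No treatment difference was called, and the largest was 0.24 ± 0.0982 after 28 days of PB (adjusted p 0.362), with values of 9.08, 9.13, 8.80, 9.01 and 9.07, against 8.70, 8.94, 8.80, 8.67 and 8.78 with H2O. Of 12 measured partners of KEAP1 and NRF2, 2 were lower after CPA, 1 was lower after DCB, and after WY 1 was higher and 1 lower. Bach1, which competes with NRF2 for its sites, was lower in both, by -0.80 ± 0.136 (adjusted p 3.12e-05) and -0.68 ± 0.136 (adjusted p 0.000435).

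Ordered by mean level over the 19 groups, neighbouring groups overlapped nearly everywhere. Of 18 neighbouring pairs for each gene, all 18 overlapped for 7 genes, and 17 did for Nr1i3, Nr1i2 and Pparg. The separate pair of Nr1i3 and of Nr1i2 was the step between the lowest C57BL group and the hCAR/hPXR groups. The spread of the C57BL control groups was 0.96 for Ppara, 0.84 for Rxra and Nfe2l2, 0.82 for Pparg, 0.75 for Nr1i2 and 0.71 for Ppard. These spreads stand beside called treatment differences of 0.63 to 1.14 in size. With the mean of the 5 C57BL CMC cohorts as control, a choice made after seeing the data, Nr1i2 was called higher after PBO at 0.46 (adjusted p 0.0176) and after WY at 0.42 (adjusted p 0.0336). Rxra was then called lower after PBO at -0.51 (adjusted p 0.00182) and higher after CITCO in C57BL mice at 0.41 (adjusted p 0.0156). Ppara was then called lower after PBO at -0.46 (adjusted p 0.0372), against 0.17 with its own controls of Co2, and Ppard lower after CITCO in C57BL mice at -0.37 (adjusted p 0.0342).

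The genes whose 17 C57BL group means followed each receptor most closely are given as a description, since groups share controls and cohorts. Rxra was followed by Fn1, Dgcr2 and Retreg2, with correlations of 0.94, 0.93 and 0.93, and over 81 arrays centred on their groups these were 0.78, 0.70 and 0.53. Nr1i2 was followed by Dlgap4, Dmwd and Fam214b at 0.95, 0.95 and 0.94, and within groups at 0.38 to 0.48. Ppara was followed by Rassf3, Eif4ebp2 and Syne2 at 0.89, 0.89 and 0.87, and within groups at 0.42, 0.36 and 0.54. For Pparg the closest were Herc3, Eepd1 and Epb41l1, at 0.89, 0.88 and 0.88, but within groups at 0.23, 0.15 and -0.05.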

How the data were processed

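Liver RNA was labelled with the 3'IVT Express kit, per the labels' protocols. The authors deposited log2 values per probe set made with RMA, per the submitters' processing notes, for 45037 probe sets and 91 arrays. The sources used here name neither a version of RMA nor a genome build. RMA equalises array distributions, so a shift in total RNA is not seen, and detection calls were not used here. Probe sets with 1 symbol (34945) were kept, 1 per gene with the highest mean. A model with 1 mean per group was fitted to all arrays with limma 3.58.1 in R 4.3.3 (72 residual degrees of freedom, mean-variance trend), two-sided, with Benjamini-Hochberg adjustment over 18193 genes. The fit was also run on simulated data with independent normal noise of equal spread in all groups. That run held no arrays that stand apart, so it does not cover their effect on the calls. The 10 genes and the gene lists were chosen with earlier results of these data known. The text names these genes, 6 target genes, up to 3 called genes with the largest difference per list and the 3 most alike genes per receptor. Mice were taken as separate replicates, as the series states random assignment to groups. Replicate numbers did not pair mice (correlations of deviations between -0.32 and 0.46), so no block was used. The titles of PB at 28 days carry a suffix (2) whose meaning is not given.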

Additional observations from a re-analysis of the deposited data

Results flagged for a closer look

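Of 190 sets of values, 10 genes in 19 groups, 13 held 1 mouse set apart from the rest by a gap larger than Dixon's limit, 6 high and 7 low, and chance alone sets apart about 1 in 20. Rxra was low in DCB replicate 1, at 9.14, and in CPA replicate 2, at 9.50, the arrays least like their groups over all genes. In H2O at 56 days replicate 5 was high in Nr1i2, at 7.96, and in Ahr, at 10.77. In the control cohort Co4 replicate 4 was high in Ppard, at 5.69, and low in Keap1, at 8.29. Rxra was low in CITCO-treated hCAR/hPXR replicate 5, at 10.80. Nr1i3 was high in PB replicate 4 at 28 days, at 9.48. Pparg was low in WY replicate 2, at 6.55, and in H2O replicate 3 at 28 days, at 6.77. Arnt was high in replicate 3 of the livers labelled MePy, at 8.02. Nfe2l2 was high in hCAR/hPXR control replicate 5, at 9.89, and low in CO replicate 4, at 9.26. The reason was not tested in any of these.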

How the results depend on the processing

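Nr1i3 and Nr1i2 between strains and Ppara after CPA stayed called in every fit tried, with adjusted p for Ppara between 3.15e-06 and 0.0257, and none of the 6 differences called with each group's own control changed sign. Among the others, 4 turned direction and were then called, namely Ppara after PBO at -0.46 in place of 0.17 with the mean of the 5 C57BL CMC cohorts as control, and between strains Arnt at 0.41 against Co1 and 0.35 against Co2 in place of -0.15, and Ppara at 0.69 against Co2 in place of -0.10. The number of the 10 genes called moved by more than 1.5 times as follows. After DCB it was 1 in place of 3 with the 2 groups alone in the fit and 1 without the 3 arrays least like their groups, an alternative added after seeing the data. Of all genes 320 and 492 were called there, in place of 696. After WY it was 1 in place of 0 with genes of low mean left out, in a fit that called 1541 genes. Between strains it was 4 in place of 2 against the mean of the 5 CMC cohorts, 5 against Co1 and 7 against Co2. Of all genes 1578, 2729 and 4667 were called there, in place of 23. With that mean as control, also added later, it was 2 for CITCO in C57BL mice, 3 for PBO and 1 for WY, in place of 0, and for PBO 1 without the 3 arrays. Leaving out 1 mouse at a time gave 1 to 2 after CPA, 1 to 3 after DCB, 0 to 1 after PBO and 0 to 1 after WY. Of all genes these fits called 602 to 1063, 394 to 935, 71 to 271 and 1192 to 2238. A replicate block, although the numbers do not pair mice, changed none of these counts, for example 1 after CPA and 3 after DCB. The cause of each change was not tested. With 4 or 5 arrays a group the standard error of a difference ran from 0.0982 for Keap1 to 0.243 for Ahr. Changes that small were not detectable here, and larger ones were also not called. Examples are Nr1i3 at 0.52 ± 0.227 after CPA and Pparg at 0.64 ± 0.214 after PBO.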
